A study of Mus musculus with 18 samples.

Results

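The replication-dependent histone genes of the mouse encode the H1, H2A, H2B, H3 and H4 proteins that package newly copied DNA, and nearly all of them lie in the Hist1 to Hist4 clusters. They were chosen here by name: every gene whose symbol begins with Hist1h, Hist2h, Hist3h or Hist4h, or whose newer symbol belongs to the same Ensembl record. The rule gave 70 genes, of which 68 were among the 47729 genes of the RNA count files. The other two, Hist1h2bm and Hist1h2bh, had no row there and were followed only by chromatin.

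The study measured bulk cortex of E15.5 embryos of genotype BAF155 cKO after treatment with Vehicle or TSA (trichostatin A, an inhibitor of histone deacetylases). BAF155, encoded by Smarcc1, is a core subunit of the BAF chromatin remodelling complex. Every group used here carried the BAF155 knockout, so TSA is compared with Vehicle within 1 genotype, and animals that lack the deletion were not analysed here. The labels name neither the Cre line that made the deletion nor the dose and duration of TSA. RNA was measured in 4 Vehicle and 4 TSA libraries. Chromatin carrying histone H3 acetylated at lysine 9 (H3K9ac), a mark of active gene starts, was measured in 4 Vehicle and 4 TSA libraries. Each was compared with 1 shared input, by its equal number of input tags (18937878). The labels list 1 Vehicle input and 1 TSA input, and how the shared input relates to them is not stated here. The labels do not say that each replicate came from its own animal, and a p-value here reflects the spread among these libraries, which may be technical.

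Most messenger RNAs end in a poly(A) tail, but a replication-dependent histone mRNA normally ends in a short stem-loop that is bound by the protein SLBP and cut with the help of the U7 small nuclear ribonucleoprotein. These genes lack introns, are read mainly during S phase, and their RNA is destroyed when DNA synthesis stops. A minority also make longer or polyadenylated transcripts, which can persist outside S phase. The RNA libraries were made with the TruSeq RNA v2 kit, which captures RNA by its poly(A) tail and does not mark strand. The counts below therefore describe the captured, polyadenylated fraction of histone RNA, not total histone mRNA.

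RNA libraries held 6733415 to 20400727 counts, and the library with the fewest was TSA 1. Mitochondrial genes took 2.86% of the counts in Vehicle 1 and 3.36% in Vehicle 4, and 1.48% to 1.997% in the other libraries. The H3K9ac lists held 22668 to 43645 peaks in Vehicle and 32248 to 61217 in TSA, from 11824246 to 24075842 tags. Vehicle 4 had the most tags and the shortest list. The labelled tissue was checked with 10 genes of cortical identity, none of which was at 0. Their summed level was 1916 to 2729 CPM (counts scaled to the same library total) in Vehicle and 3110 to 3681 CPM in TSA. The 10 ganglionic eminence genes described below summed to 1034 to 1238 CPM in Vehicle and 530 to 790 CPM in TSA. The check therefore does not show how pure the cortical tissue was.

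Sequences of some of the starts are shown first, for genes that the RNA and H3K9ac results below describe. No result below was related to a motif. Promoter sequence was given by RefSeq (build GRCm38.p6, the same assembly as mm10) for 62 of the 70 genes. The 250 bases before each start were searched on both strands for 4 short motifs that are known in histone promoters. One was CCAAT, which reads ATTGG on the opposite strand. Another was TATAAA, the core of the TATA box, which reads TTTATA there. The others were the octamer ATTTGCAT, which reads ATGCAAAT there, and the H1 box AAACACA, which reads TGTGTTT there. Matches that overlapped one another were each counted. The 150 bases before the start of 7 genes are given 5′ to 3′ on the gene's own strand, with these motifs in capitals. Hist3h2ba, Hist3h2a, Hist1h4i and Hist1h1c were among the histone genes with the most RNA. Hist1h2ad and Hist1h4c had H3K9ac in every library and no RNA count, and Hist1h1t was the start without a peak. The windows lie at chr11:58948761-58948910 (plus strand) for Hist3h2ba, chr11:58954535-58954684 (plus strand) for Hist3h2a, chr13:22041363-22041512 (minus strand) for Hist1h4i, chr13:23738657-23738806 (plus strand) for Hist1h1c, chr13:23574231-23574380 (plus strand) for Hist1h2ad, chr13:23698459-23698608 (minus strand) for Hist1h4c and chr13:23695661-23695810 (plus strand) for Hist1h1t, all upstream of the first transcribed base.
Hist3h2ba: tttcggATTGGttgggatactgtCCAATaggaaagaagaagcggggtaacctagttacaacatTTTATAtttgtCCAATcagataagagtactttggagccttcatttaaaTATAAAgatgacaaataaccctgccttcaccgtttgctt
Hist3h2a: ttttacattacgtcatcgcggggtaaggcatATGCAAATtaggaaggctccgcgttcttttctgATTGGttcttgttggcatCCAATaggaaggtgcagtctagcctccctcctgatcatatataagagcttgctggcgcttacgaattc
Hist1h4i: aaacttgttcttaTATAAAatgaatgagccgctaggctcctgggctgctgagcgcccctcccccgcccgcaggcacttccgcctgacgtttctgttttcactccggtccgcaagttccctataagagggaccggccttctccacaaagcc
Hist1h1c: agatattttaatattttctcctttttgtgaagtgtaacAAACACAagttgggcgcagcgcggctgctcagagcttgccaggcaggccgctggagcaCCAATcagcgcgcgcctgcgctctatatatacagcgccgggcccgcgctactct
Hist1h2ad: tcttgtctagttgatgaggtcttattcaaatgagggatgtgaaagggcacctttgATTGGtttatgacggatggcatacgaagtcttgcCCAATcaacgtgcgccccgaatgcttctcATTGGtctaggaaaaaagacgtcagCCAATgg
Hist1h4c: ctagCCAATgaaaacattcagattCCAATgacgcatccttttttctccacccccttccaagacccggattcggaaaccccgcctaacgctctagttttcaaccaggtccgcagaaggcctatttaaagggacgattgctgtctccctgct
Hist1h1t: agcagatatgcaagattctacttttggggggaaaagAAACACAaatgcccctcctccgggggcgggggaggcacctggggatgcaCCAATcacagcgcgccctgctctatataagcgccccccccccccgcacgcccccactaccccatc

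The motifs were spread unevenly over the classes. CCAAT was found before 51 of the 62 histone starts (82.3%), against 34.5% of all 27025 RefSeq starts searched over the same length. It was found before 6 of 6 H1, 18 of 18 H2A and 16 of 16 H2B starts, 8 of 10 H3 starts, and 3 of 12 H4 starts. Hist3h2ba and Hist3h2a each hold it, and the 150 bases of Hist1h4i do not. TATAAA stood before 29 histone starts (46.8%) and 12.97% of all starts. The octamer stood before 13 (21.0%), of which 7 were H2A and 6 H2B, against 1.61% of all starts. AAACACA stood before 9 (14.5%), against 6.22% of all starts, and 5 of the 6 H1 starts held it, Hist1h1c and Hist1h1t among them. A match describes letters in the window and not a bound site, and neighbouring histone starts share bases within these windows, so the shares are not of independent sequences.

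Of the 68 genes in the count files, 23 had no count in any of the 8 libraries, 38 had counts but fell under the filter on low counts, and 7 passed it and were tested. The 7 tested genes held 96.5% of the 14470 counts on all histone cluster genes, and the 38 under the filter held 506 counts together. The totals of those 38 over 8 libraries ran from 1 to 82, with a median of 6.5, and 32 of them had fewer than 20. A count of 0 allows up to 3 counts over a group, or 0.0532 CPM in Vehicle and 0.0487 CPM in TSA, and this limit covers counting error only. Coding sequences of many histone genes are near-identical, and how the authors counted reads that match several genes is not given in the sources used here. A low or zero count therefore says how many reads were assigned to a gene, and its share of reads from near-identical copies is uncertain.

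The classes were captured unequally. All 6 H1 genes had counts, and 1164 of the 1229 H1 counts were on Hist1h1c, which encodes a somatic linker histone. Of 20 H2A genes, 11 had no count, and Hist3h2a carried 4265 of 4331 counts. Of 17 H2B genes, 5 had no count and 4 were tested, with 8254 counts on the class. None of the 12 H3 genes was tested: they held 111 counts in all, 82 of them on Hist2h3c2. Of 13 H4 genes, 4 had no count and Hist1h4i carried 377 of 545 counts. By cluster, the 3 Hist3 genes held 9327 counts, the 10 Hist2 genes 2705, the 54 Hist1 genes 2402 and the single Hist4 gene 36.

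**Figure D1:**
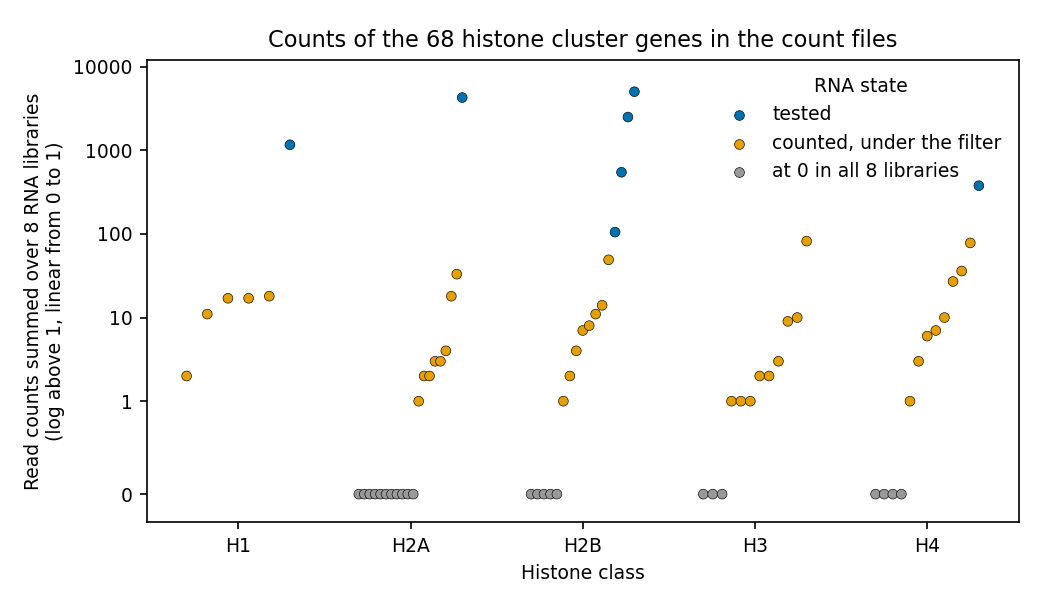
Read counts summed over the 8 RNA libraries for each of the 68 histone cluster genes in the count files (vertical axis, log scale above 1), by histone class (horizontal axis), 1 point per gene coloured by RNA state. The 7 tested genes stand above the rest, and 23 genes sit at 0.

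The genes at 0 were 11 H2A genes (Hist1h2aa, Hist1h2ad, Hist1h2af, Hist1h2ah, Hist1h2aj, Hist1h2ak, Hist1h2an, Hist1h2ao, Hist1h2ap, Hist2h2aa1 and Hist2h2aa2), 5 H2B genes (Hist1h2ba, Hist1h2bf, Hist1h2bq, Hist1h2br and Hist2h2bb), 3 H3 genes (Hist1h3i, Hist2h3b and Hist2h3c1) and 4 H4 genes (Hist1h4a, Hist1h4b, Hist1h4c and Hist1h4m). Hist1h2aa and Hist1h2ba encode testis forms of H2A and H2B. Most of the others encode canonical core histones.

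Of the 7 tested histone genes, 3 had less RNA in TSA (edgeR quasi-likelihood test, adjusted p under 0.05): Hist3h2ba and Hist2h2be, both H2B genes, and Hist1h4i, an H4 gene. None had more, also at an unadjusted p under 0.05 (0 genes) and with DESeq2 or limma-voom (0 genes each). Of all 15000 tested genes, 17.6% were called lower and 15.4% higher, and 7 genes are too few for a share of them to be read closely against that background. The median log2 fold change of the 7 was -0.52, and that of all tested genes was -0.01. In bulk tissue, fewer cells of a type and less RNA per cell cannot be told apart.

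Hist3h2ba (chr11:58948911-58949372, a single RefSeq transcript of 462 bp) had the highest Vehicle level of the histone genes with a value per length. It stood at 115.3 ± 16.6 CPM per kb in Vehicle and 70.9 ± 2.79 CPM per kb in TSA (SD, n = 4 each). Its Vehicle libraries stood at 53.6, 42.3, 59.1 and 58.0 CPM, and its TSA libraries at 32.2, 34.5, 31.5 and 33.0 CPM. Each TSA library was below each Vehicle library, as held for 3 of the 7 tested genes and for 17.4% of all tested genes. Its RNA fell by 0.70 on the log2 scale (SE 0.11, adjusted p 0.000334 by edgeR). It was also called in each fit that left out 1 library.

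Hist3h2a (chr11:58954685-58955192, 508 bp) encodes an H2A and lies in the same cluster and on the same strand as Hist3h2ba, with the pseudogene Hist3h2bb-ps between them. It stood at 72.9 ± 10.7 CPM per kb in Vehicle, next in level per length there, and at 72.05 ± 8.73 in TSA (SD, n = 4 each). In TSA it did not differ from Hist3h2ba (70.9 ± 2.79 CPM per kb) beyond the spread. Its Vehicle libraries stood at 30.8, 37.2, 44.1 and 36.1 CPM, and its TSA libraries at 43.1, 33.8, 35.6 and 33.9 CPM. The groups overlapped, and the log2 fold change was -0.03 (SE 0.12, adjusted p 0.892 by edgeR). The fitted value was near 0 in each leave-one-out fit and changed sign in 3 of them.

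The ratio of the pair within each library sets the groups apart. Hist3h2ba had 1.74, 1.14, 1.34 and 1.61 counts per Hist3h2a count in Vehicle, and 0.746, 1.02, 0.883 and 0.974 in TSA. The lowest Vehicle ratio was above the highest TSA ratio. This ratio was chosen after the values were seen, so no test is given, and it compares 2 genes of similar length in the same library, so library size does not enter it.

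**Figure D2:**
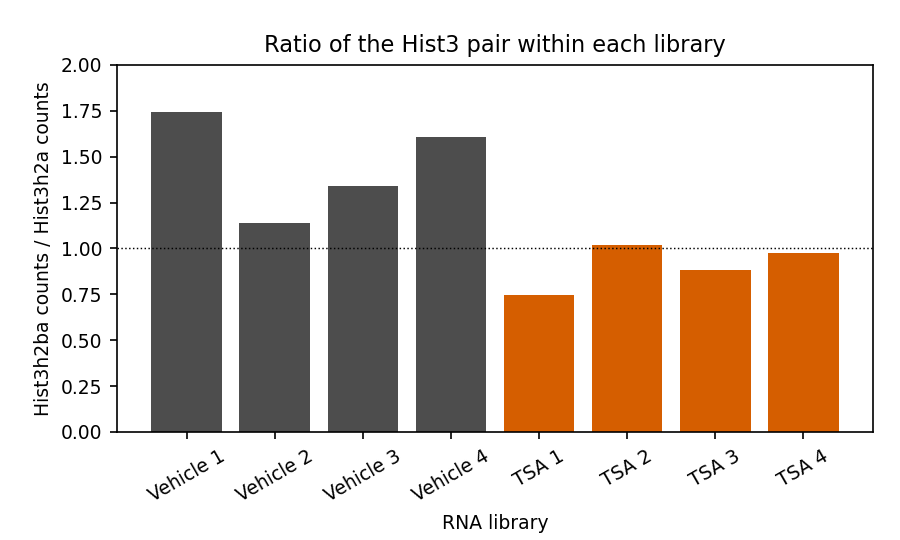
Counts of Hist3h2ba divided by counts of Hist3h2a (vertical axis, from 0) in each RNA library (horizontal axis), 1 bar per library, Vehicle in grey and TSA in orange, with a dotted line at 1. The 4 Vehicle ratios (1.14 to 1.74) all exceed the 4 TSA ratios (0.746 to 1.02).

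Hist2h2be (chr3:96221072-96223738), an H2B gene whose RefSeq transcript is long for a histone at 2667 bp, stood at 9.96 ± 0.273 CPM per kb in Vehicle and 6.58 ± 2.21 in TSA (SD, n = 4 each). The Vehicle libraries held 26.5, 27.1, 27.1 and 25.6 CPM, and the TSA libraries 26.1, 13.1, 16.9 and 14.2 CPM. TSA 1 stood at the Vehicle level, so the groups overlapped, while the other 3 TSA libraries were below every Vehicle library. The gene fell by 0.63 on the log2 scale (SE 0.17, adjusted p 0.0113 by edgeR), and by 0.84 without TSA 1 (adjusted p 0.000904). It was not called once a trend on gene span, described below, was removed (-0.42, adjusted p 0.0831).

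Hist1h4i (chr13:22040960-22041362, 403 bp) was the most counted H4 gene, at 10.02 ± 0.816 CPM per kb in Vehicle and 5.81 ± 1.14 in TSA (SD, n = 4 each). Its Vehicle libraries stood at 4.40, 4.19, 3.93 and 3.64 CPM and its TSA libraries at 1.98, 1.98, 2.47 and 2.94 CPM. The groups did not overlap. It fell by 0.77 on the log2 scale (SE 0.21, adjusted p 0.0131 by edgeR), and the adjusted p was 0.0514 without TSA 2. It too was not called with the span trend removed (-0.37, adjusted p 0.248).

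Hist1h2bc, an H2B gene, was not called, although its groups did not overlap. It stood at 5.91, 4.96, 4.48 and 6.89 CPM in Vehicle and 4.27, 3.16, 3.75 and 4.44 CPM in TSA, with a log2 fold change of -0.52 (SE 0.20, adjusted p 0.0612 by edgeR). Without Vehicle 3 the adjusted p was 0.0435. The linker histone gene Hist1h1c stood at 9.76, 10.2, 12.3 and 11.8 CPM in Vehicle and 8.99, 9.21, 7.65 and 10.003 CPM in TSA. Its groups overlapped, with a log2 fold change of -0.30 (SE 0.14, adjusted p 0.133). Per length it stood at 15.2 ± 1.67 CPM per kb in Vehicle and 12.4 ± 1.35 in TSA (SD, n = 4 each), next in order after the Hist3 pair and beyond the spread of Hist1h4i and Hist2h2be, which did not differ from each other beyond theirs in Vehicle.

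Hist1h2be, an H2B gene, stood at 0.619, 0.967, 1.102 and 0.633 CPM in Vehicle and 1.22, 1.02, 0.938 and 0.750 CPM in TSA, with overlapping groups and a log2 fold change of 0.19 (SE 0.34, adjusted p 0.712 by edgeR). Hist1h2bc and Hist1h2be have several RefSeq transcripts, and their records span 8282 and 37455 bp, so no level per length is given. Long records were uncommon among the histone genes: 7 of the 70 spanned over 1 kb, and 3 of these 7 were among the tested genes.

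**Figure D3:**
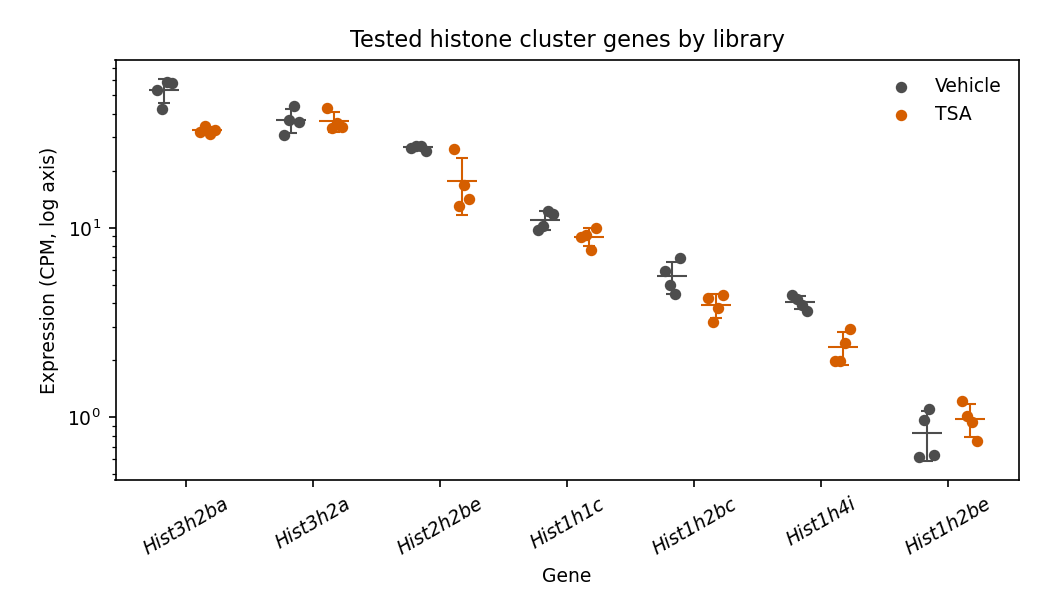
Expression in CPM (vertical axis, log scale) of the 7 tested histone cluster genes (horizontal axis), 1 point per library, with horizontal marks and bars for the mean ± SD of 4 Vehicle (grey) and 4 TSA (orange) libraries. The TSA points lie below the Vehicle points for Hist3h2ba, Hist1h4i and, by a narrow margin, Hist1h2bc, and the TSA 1 point of Hist2h2be lies at the Vehicle level.

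Summed over all histone cluster genes, the level was 142 ± 11.6 CPM in Vehicle and 108 ± 9.98 CPM in TSA (SD, n = 4 each). The Vehicle sums were 136, 131, 156 and 147 CPM, and the TSA sums 123, 102, 102 and 104.7 CPM. The sums follow Hist3h2ba, Hist3h2a and Hist2h2be, which hold most of the counts, and no test is given for them.

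Short genes as a whole tended to lower values in TSA in these libraries. The 159 tested genes that span under 1 kb had a median log2 fold change of -0.50, and 32 of them (20.1%) were called lower and 3 higher. Of all tested genes, 17.6% were called lower and 15.4% higher, so the share called lower was near that of all genes. For each library, the deviation of log2 expression from the gene's mean over the 8 libraries was set against log10 gene span. The slope was -0.16, 0.05, -0.07 and -0.20 in the Vehicle libraries and 0.08, 0.11, 0.15 and 0.03 in the TSA libraries. Its sign is therefore relative to the other libraries. With each library's trend on span removed, the median of the genes under 1 kb was -0.01 and that of the 7 histone genes was -0.28. Hist3h2ba was then the only one called, at -0.28 (adjusted p 0.0336 by edgeR). Hist3h2a stood at 0.37 (adjusted p 0.0804) and Hist1h1c at 0.08. The span used was that of the RefSeq record, so Hist1h2bc and Hist1h2be were adjusted as long genes. Their values moved little, from -0.52 to -0.40 and from 0.19 to 0.18, and their transcripts may be shorter than their records.

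A few genes under the filter had the most uneven counts between the groups, and were singled out after their values were seen. Hist2h3c2, an H3 gene, had 7, 6, 5 and 5 counts in Vehicle and 1, 23, 15 and 20 in TSA. Hist2h4, an H4 gene in the same cluster, had 8, 4, 5 and 6 counts in Vehicle and 2, 20, 14 and 19 in TSA. Scaled for depth, TSA 1 stood at 0.152 CPM for Hist2h3c2, below the Vehicle range of 0.344 to 0.481, and at 0.305 CPM for Hist2h4, within the Vehicle range of 0.258 to 0.550. The other 3 TSA libraries were above every Vehicle library for both genes. With no filter their log2 fold changes were 1.19 (adjusted p 0.0872) and 1.11 (adjusted p 0.132) by edgeR. Neither was called. Hist4h4, an H4 gene that stands alone on chromosome 6, had 6, 10, 9 and 5 counts in Vehicle and 4, 1, 0 and 1 in TSA. Scaled for depth, TSA 1 (0.610 CPM) lay within the Vehicle range of 0.396 to 0.645 CPM, so the groups overlapped. Its log2 fold change with no filter was -2.09 (adjusted p 0.0524).

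At the chromatin level the histone genes were marked almost throughout, whether or not RNA was counted. An H3K9ac peak lay within 1 kb of the start in all 8 libraries for 57 of 62 histone starts, against 33.3% of all 27025 starts. Among the 22 histone starts whose genes had no RNA count, 19 were occupied in all 8 libraries, against 1.77% of all 4352 starts of genes at 0, and those 19 were themselves part of the 77 such starts. Only polyadenylated RNA was captured, so a count of 0 need not mean the same for histone genes as for other genes. Neighbouring histone starts can share a peak, so the 19 are not independent. The tags were 50 bases long, and how tags that match several near-identical genes were placed is not stated here. Occupancy of a single copy is therefore uncertain, as its RNA count is. Of the 33 under the filter, 31 were occupied in all 8, against 9.73% of all starts in that state. The 5 tested histone genes with a listed start were all occupied in all 8, against 70.01%. Both genes with no row in the count files, Hist1h2bm and Hist1h2bh, were occupied in all 8 as well.

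**Figure D4:**
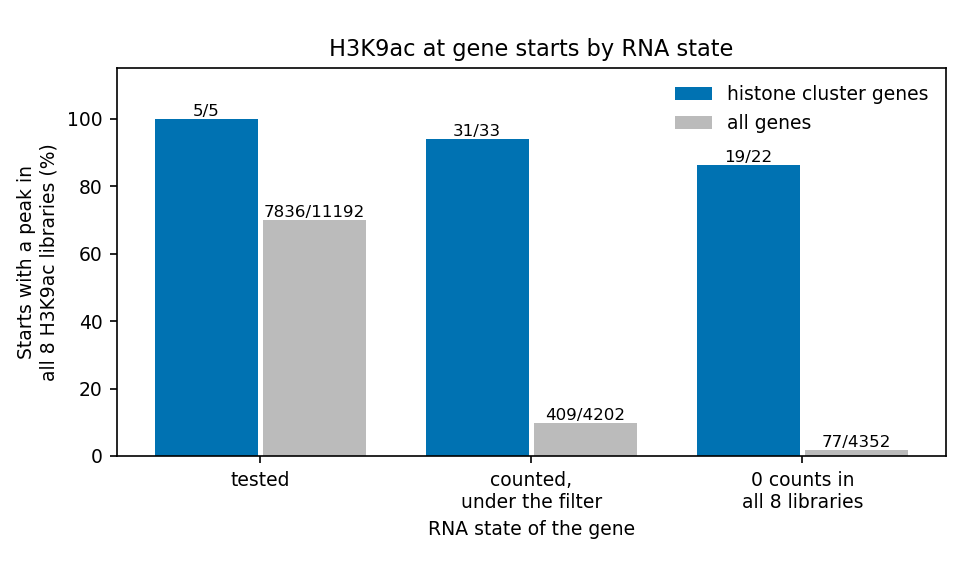
Share of gene starts with an H3K9ac peak within 1 kb in all 8 libraries (vertical axis, percent, from 0) by RNA state of the gene (horizontal axis), histone cluster genes in blue and all genes, which include them, in grey, with the counts above each bar. The share for histone genes at 0 counts is 19 of 22, against 77 of 4352 for all genes in that state.

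The 5 exceptions were as follows. Hist1h1t, which encodes the testis form of H1, had a peak in none of the 8 libraries. Its neighbour Hist1h4c on the opposite strand had peaks of 15.55, 13.6, 14.3 and 7.15 fold over input in Vehicle and 10.1, 9.18, 7.02 and 13.8 fold in TSA. The testis pair Hist1h2aa and Hist1h2ba lacked a peak in TSA 3, which had the shortest TSA list. Hist1h2af and Hist1h2bb lacked one in Vehicle 4, which had the shortest list of all. Without Vehicle 4 and TSA 3, 61 of the 62 were occupied in every remaining library. The 8 histone genes for which no start was given were examined at both ends, and 7 had a peak at an end in all 8 libraries. The exception was Hist1h2al, which lacked one in Vehicle 4.

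No histone start was gained or lost with TSA by the rule used, occupancy in at least 3 more libraries of one group than of the other. The rule was met by 0.659% of all starts for TSA and by 0.037% for Vehicle. The Vehicle libraries held 61, 61, 61 and 59 occupied histone starts and the TSA libraries 61, 61, 59 and 61. With 57 of 62 starts occupied in all 8 libraries, almost no histone start was free to be gained, so this count says little about TSA. Over all 70 genes the strongest peaks were 46 to 50 distinct peaks per library, since neighbours shared them. In 10 cases an H2A and an H2B gene were transcribed away from each other with starts 164 to 281 bp apart. In 9 of these pairs, the strongest peak within 1 kb was the same for both starts in all 8 libraries. Hist1h2ad and Hist1h2bf, 174 bp apart, are an example. In the Hist1h2ba and Hist1h2aa pair it was the same in 7. With starts this close both windows nearly coincide, so a shared peak was close to given in advance, and it need not cover either start.

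The height of the peaks, as the authors' fold enrichment over input, is given to describe each list. For the histone genes, the strongest peak at each start was taken, or at either end where no start was given, with shared peaks taken once. These peaks had a median of 13.99, 13.1, 14.7 and 7.00 fold in Vehicle and 8.74, 8.35, 8.01 and 13.6 fold in TSA. A like measure over all genes used listed starts only, the strongest peak at each with shared peaks taken once. It had a median of 8.29, 8.21, 8.78 and 5.92 fold in Vehicle and 7.58, 7.09, 6.61 and 9.99 fold in TSA. Vehicle 4 and TSA 4 each stood apart from their groups, so the groups overlapped. Among these strongest peaks, the median histone peak stood at percentiles 92.5, 90.7, 91.1 and 67.1 in Vehicle and at 62.1, 66.1, 70.4 and 76.8 in TSA. The highest mean over libraries was shared by Hist1h2ao and Hist1h2bq, a divergent pair with no RNA count, whose joint peak reached 29.5, 26.3, 22.1 and 13.3 fold in Vehicle and 20.5, 13.4, 12.4 and 25.3 fold in TSA.

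Both of these Hist3 genes were marked in all 8 libraries. The peak at Hist3h2ba had 13.99, 15.7, 19.1 and 8.72 fold enrichment in Vehicle and 11.4, 13.4, 8.01 and 24.6 fold in TSA. The peak at Hist3h2a had 17.6, 19.7, 15.2 and 11.1 fold in Vehicle and 12.7, 12.5, 11.4 and 20.3 fold in TSA. For both genes the groups overlapped, and the highest TSA value was in TSA 4. Hist1h4i had 14.5, 9.20, 10.6 and 5.84 fold in Vehicle and 7.20, 7.51, 5.34 and 15.7 fold in TSA, again with overlap.

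Peaks covered the sequence on either side of the histone starts more than the start itself. At the first base, 37.1%, 37.1%, 37.1% and 4.84% of the 62 histone starts were covered in Vehicle and 21.0%, 14.5%, 9.68% and 45.2% in TSA. The downstream maximum was 79.0% to 96.8%, at 220 to 420 bp from the start, which for most of these genes lies within or at the end of the transcribed part. The upstream maximum was 38.7% to 75.8%. Among 8677 other starts occupied in all libraries, 15.52% to 50.9% were covered at the first base, and the downstream maximum was 57.0% to 88.3%. In every library, a smaller share of histone starts than of other starts was covered at the first base and a larger share at the downstream maximum.

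**Figure D5:**
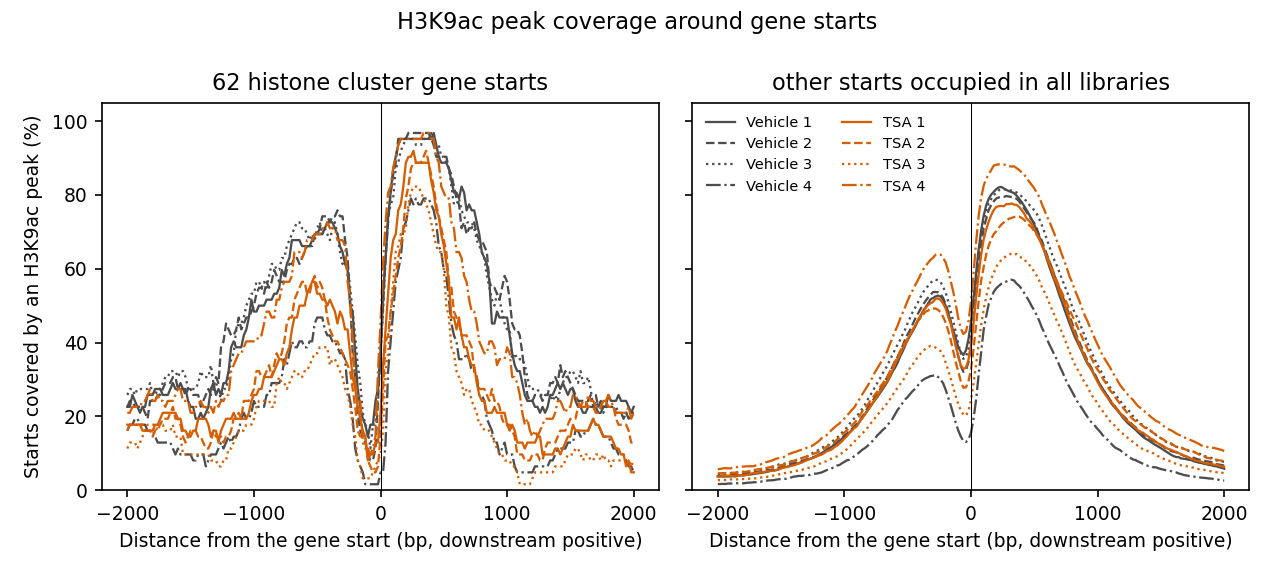
Share of starts covered by an H3K9ac peak (vertical axis, percent) by distance from the start (horizontal axis, bp, downstream positive), for 62 histone cluster gene starts (left) and 8677 other starts occupied in all libraries (right), 1 line per library, Vehicle in grey and TSA in orange. Coverage of histone starts dips at and just upstream of the start in every library and peaks 220 to 420 bp downstream, at 79.0% to 96.8%.

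The histone loci took up a smaller part of the TSA lists than of the Vehicle lists. Peaks in the 8 stretches that hold the histone genes covered 75600, 76794, 77862 and 38628 bp in Vehicle and 50239, 52063, 37513 and 70372 bp in TSA. As a share of all bases under peaks this was 0.454%, 0.447%, 0.404% and 0.474% in Vehicle and 0.276%, 0.259%, 0.3001% and 0.268% in TSA. The shares did not overlap, although the covered lengths did. Mean peak length in these stretches was 610, 629, 660 and 407 bp in Vehicle and 507, 465, 469 and 607 bp in TSA. Over whole lists it was 360 to 442 bp in Vehicle and 378 to 430 bp in TSA. A share of this kind moves with how much was called elsewhere, peaks were called for each library by itself, and no test is given.

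The list counts here and below stand against 17.6% of all tested genes called lower and 15.4% called higher. The genes that make, cut and bind histone mRNA were given by a list of 25. Of these, 8 were lower in TSA, 3 were higher, and the median log2 fold change was 0.01. Several of the lower genes encode core proteins of small nuclear ribonucleoproteins: Snrpe fell by 1.02 (SE 0.14, adjusted p 0.00014 by edgeR) and Snrpg by 1.02 (SE 0.17, adjusted p 0.000519). Slbp, which encodes the stem-loop binding protein, fell from 46.0 ± 3.49 to 35.9 ± 1.56 CPM (SD, n = 4 each), a log2 fold change of -0.35 (adjusted p 0.00836 by edgeR). Lsm10, a subunit of the U7 particle, fell by 0.50 on the log2 scale, while its partner Lsm11 was not called (log2 fold change 0.12). Upf1, a helicase that acts in histone mRNA decay, rose by 0.53, and Ybx1, an RNA-binding protein gene, fell by 0.42.

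Of 13 genes of histone gene transcription, 4 were lower and 1 higher, with a median of -0.06. Ccne2 (cyclin E2) fell by 0.89, E2f2 by 0.69 and Ccne1 (cyclin E1) by 0.41, and Gon4l rose by 0.38 on the log2 scale. Npat, whose product activates histone genes in S phase, was not called (log2 fold change -0.06, adjusted p 0.626 by edgeR). Of 27 histone chaperone and assembly genes, 5 were lower, a share near that of all genes, and 7 were higher, with a median of 0.07. The lower ones included Hat1, a histone acetyltransferase gene, at -0.80, Rbbp4 at -0.73, Dnajc9 at -0.72 and Asf1a at -0.61.

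Of 35 genes of DNA replication and S phase, 16 were lower and none was higher, with a median of -0.18. At an unadjusted p under 0.05 there were 2 higher genes, with DESeq2 1 and with limma-voom 0. Prim1 (a primase subunit) fell by 0.92, Rfc3 by 0.90, Rfc4 by 0.80 and Pcna by 0.69 on the log2 scale. Of 20 genes of G2 and mitosis, 8 were lower and 1 higher, with a median of -0.22, and Cdk1 fell by 0.71 and Birc5 by 0.80. Of 11 replication-independent histone genes, whose mRNAs are polyadenylated, 6 were lower and none was higher, with a median of -0.38. Among these there were 2 higher at an unadjusted p under 0.05, 2 with DESeq2 and 1 with limma-voom. H2afj fell by 0.99, H2afv fell by 0.95, H3f3a fell by 0.87 and Cenpa fell by 0.66.

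Markers of other cell types are given beside these results, against the 17.6% of all tested genes called lower and 15.4% called higher. Of 10 ganglionic eminence genes, 8 were lower and 2 higher, and their summed level was 1034 to 1238 CPM in Vehicle and 530 to 790 CPM in TSA. Dlx1 fell by 1.16 and Gsx2 fell by 2.18 on the log2 scale. Of 10 cortical genes, 8 were higher and 1 lower: Eomes, a marker of intermediate progenitors, rose by 2.09 and Pax6, a marker of radial glia, fell by 1.54. Of 9 tested erythroid genes 3 were lower, with sums of 343 to 643 CPM in Vehicle and 225 to 258 CPM in TSA. Of 11 microglial genes 6 were lower, with sums of 63.6 to 89.8 CPM and 48.8 to 65.2 CPM. Of 8 endothelial genes 2 were lower, a share near that of all genes, with overlapping sums of 122 to 200.2 CPM and 127 to 163 CPM. None of these last 3 lists had a higher gene by edgeR, also at an unadjusted p under 0.05, or by DESeq2 or limma-voom (0 each). No gene of these lists was at 0 in all libraries, and their part in the histone results was not tested.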

How the data were processed

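The members and lists were chosen with earlier results of these data known. RNA was measured in 8 libraries and H3K9ac in 8. Per the file headers and values, the authors deposited 1 table of raw read counts per RNA library, with no normalization. The aligner, counter and annotation of the RNA are not stated in any label or header read here. The genome build is mm10 and SAMtools and MACS2 were used, per the submitters' processing notes. Peaks were called by the authors in each library against 1 input with MACS2 2.1.0.20140616 at a q-value of up to 0.1, per the file headers. The deposited lists give a pileup signal, a fold enrichment (a ratio over input) and -log10 of p and q-values for each peak, and these were used as the authors gave them.

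Counts were tested with edgeR 4.0.16 (R 4.3.3): filterByExpr, TMM, a robust quasi-likelihood fit of TSA against Vehicle, with p-values adjusted by Benjamini-Hochberg over 15000 genes and called under 0.05. CPM used TMM-scaled totals. Level per kb used the RefSeq gene span of genes with a single transcript, since exon lengths were not used here. No pair of libraries had counts that matched within sampling noise. A start counted as occupied in a library when a peak overlapped the 1000 bp on either side. RefSeq (GRCm38.p6) starts and promoters were matched by gene. The genes named are the tested histone genes, every called one, and up to 4 genes with the smallest p of each list; others are named after their values were seen. Alternatives were RLE scaling, DESeq2 1.42.0, limma-voom (limma 3.58.1), other filters, a replicate block, lane, removal of the trend on span, and libraries left out. For the peaks they were stricter limits, other windows, and libraries left out, of which Vehicle 4 with TSA 3 was chosen after the data were seen. The edgeR step was checked on simulated data.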

Additional observations from a re-analysis of the deposited data

Results flagged for a closer look

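In groups of 4 libraries, 24 were examined for a lowest or highest value that stood apart by Dixon's test at its critical value, and chance alone marks about 1 in 20 groups. Vehicle 4 and TSA 3, which had the shortest H3K9ac lists of their groups, each held 59 occupied histone starts where the other 3 libraries held 61. With those 3 tied, any departure is marked by Dixon's test, so the 1 in 20 rate does not apply and these marks say little. Among all peaks near a gene start, the strongest histone peaks had a median percentile of 77.2 in Vehicle 4 and 94.7 to 95.8 in the other Vehicle libraries. Setting strongest peaks against all peaks raises these ranks. Among the strongest peaks of all starts, as above, they were 67.1 and 90.7 to 92.5. The median fold enrichment of the strongest histone peaks was 13.6 in TSA 4, which had the longest list, and 8.01 to 8.74 in the other TSA libraries. The summed RNA level of all histone cluster genes was 123 CPM in TSA 1, the library with the fewest counts, and 102 to 104.7 CPM in the other TSA libraries.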

How the results depend on the processing

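Of the 7 tested histone genes, 3 were lower and none higher with RLE scaling, DESeq2, limma-voom, no filter, a mean CPM filter, the lane term and without Vehicle 1 and Vehicle 4 together. Removing the trend on gene span left 1. Leaving out 1 library gave 2 (without TSA 2) to 4 (without Vehicle 3) lower and 0 to 2 (without TSA 1) higher. Those 2 are Hist2h3c2 and Hist2h4, not among the 7, which pass the filter there only through their high TSA 2 to TSA 4 counts, so they are not read as a result. Calls over all genes numbered 4954, and 3856 to 5593 with libraries left out, and list calls numbered 88, and 71 to 99. The median of the histone genes was -0.52, -0.28 with the span trend removed and -0.080 with no filter (45 histone genes tested). It was -0.31 without Vehicle 1 and Vehicle 4 (10 tested), and -0.55 to -0.24 with 1 library left out, where 7 to 9 were tested. Fits with more than 7 added genes that the main fit left out, such as Hist2h3c2 and Hist2h4, which had positive log2 fold changes there. Their medians are therefore not over the same genes. The same 7 genes gave -0.42 without TSA 2, -0.50 without TSA 3 and -0.55 without TSA 4. Without Vehicle 3 the median was -0.24, while Hist1h2bc, the middle gene of the main fit, stood at -0.61. Hist3h2a changed sign without Vehicle 3 (0.067), TSA 2 (0.01) or TSA 4 (0.0078) and with the span trend removed (0.37), as did Hist1h1c with the span trend removed (0.083) and Hist1h2be without Vehicle 1 and Vehicle 4 (-0.11). Apart from the genes added to some medians, and the span trend, whose removal changes the scale of short genes by construction, the cause was not tested. Whether replicate numbers pair the libraries was not settled. Same-numbered correlations were 0.10, 0.09, 0.07 and 0.11, all weakly positive, and the others ran from -0.21 to 0.15. The highest was that of Vehicle 2 with TSA 3, which shared a lane. A fit with the replicate number as a block called 5342 genes, and 3 histone genes lower and 0 higher. Occupancy in all 8 libraries (57 of 62) was 57 with stricter q-values, fold enrichment or a 500 bp window, 57 to 59 with 1 library left out, 61 without Vehicle 4 and TSA 3, 64 of 70 over gene bodies, and 1 at the start base itself.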
